A study of Mus musculus with 18 samples.

Results

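The genes examined here encode the proteins of the cytosolic ribosome. They were chosen by symbol: every row of the count table named Rpl or Rps followed by a number, a stalk name (Rplp0, Rplp1, Rplp2) or Rpsa, leaving out the Rps6k kinases and symbols marked as pseudogenes. The rule found 85 of the 24602 gene symbols, 52 of the large subunit and 33 of the small subunit. Of these, 82 had enough counts to be tested in each comparison. The symbols Rpl26 and Rpl10l were listed at 0 in every library, and Rpl39l had 15 counts in all. Ribosomal proteins whose symbols the rule does not catch (such as Fau, Rack1 and Rpl36al) are described separately.

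The study measured RNA-seq in nuclear and in total RNA of mice carrying the R388W allele of Nup93, a scaffold protein of the nuclear pore. The series names the strain 129S1/SvlmJ and podocytes, the filtering epithelial cells of the kidney glomerulus, while the sample labels say only mouse tissue; ages are not given in the sources used here. There were 18 libraries, 3 in each of 6 groups: nuclear RNA from Nup93 wild type (WT), Nup93 R388W/+ (Het) and Nup93 R388W/R388W (Hom) mice, and total RNA from the same 3 genotypes. The labels do not tie the 3 replicates of a group to different mice, and the p-values below therefore rest on a spread among libraries that could be technical.

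Each cytosolic ribosome is built from ribosomal RNA and one copy of most ribosomal proteins, with the stalk proteins as the exception, so the cell needs these proteins in balanced amounts. Their mRNAs are short, abundant and mostly begin with a C followed by a run of pyrimidines, the terminal oligopyrimidine (TOP) motif through which mTOR signalling and Larp1 control their translation and stability. The proteins are made in the cytoplasm, imported through nuclear pores, assembled with ribosomal RNA in the nucleolus and exported again as subunits.

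Promoters are shown first because a run of pyrimidines near the start of transcription was found in most members with a promoter entry. Such a run need not lie at the start itself, and in Rpl10, Rpl41 and Rps2 it began 40 bases after it. RefSeq promoter entries (GRCm38.p6) existed for 64 of the 85 members. Each line below gives 40 bases before and 20 bases after the most upstream start, with capitals for the longest run of C and T that lies between 20 bases before and 50 bases after the start. Runs further upstream, as in Rpl7l1 and Rps27l, stay in lower case. Rpl13a and Rps6 stand for members that moved with the family, Rpl15 and Rps27l for members that varied little, and Rpl22l1 and Rpl7l1 for paralogs. Rps27 is a core member with almost no counts in these libraries. Rps27l has 2 starts in the table.
Rpl13a: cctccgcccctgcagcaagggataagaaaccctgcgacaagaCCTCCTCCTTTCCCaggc
Rps6: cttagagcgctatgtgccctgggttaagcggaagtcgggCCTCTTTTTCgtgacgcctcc
Rpl15: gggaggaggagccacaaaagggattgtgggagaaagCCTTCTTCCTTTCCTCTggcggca
Rps27: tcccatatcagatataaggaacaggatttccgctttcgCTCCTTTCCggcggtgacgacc
Rps27l: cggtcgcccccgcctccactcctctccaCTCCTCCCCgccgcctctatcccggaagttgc
Rpl22l1: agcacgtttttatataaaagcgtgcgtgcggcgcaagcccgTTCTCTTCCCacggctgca
Rpl7l1: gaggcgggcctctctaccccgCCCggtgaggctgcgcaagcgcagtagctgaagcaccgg
These windows lie at chr7:45128726-45128785 (minus strand) for Rpl13a, chr4:86857348-86857407 (minus) for Rps6, chr14:18270967-18271026 (minus) for Rpl15 and chr3:90213629-90213688 (minus) for Rps27. Those of the paralogs lie at chr9:66946046-66946105 (plus) for Rps27l, chr3:28805468-28805527 (plus) for Rpl22l1 and chr17:46782637-46782696 (minus) for Rpl7l1. Each spans the transcription start of its gene and holds flanking sequence and the first bases of the first exon.

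A run of at least 8 C or T bases between 20 bases before and 50 bases after the start was present in 47 of the 64 members (73.4%) and in 25.3% of all 27025 promoters in the table. The median longest run was 10 bases in the members and 6 in all promoters. Runs were measured within that stretch only, so those that reach its end, as in Rpl10, Rpl41 and Rps2, could be longer. Of the genes printed, Rpl15 had the longest run in that stretch, 17 bases, and Rpl7l1 the shortest, 3 bases. Motifs were searched on both strands of the whole 300-base window, 250 before and 50 after the start. The ETS-type motif CCGGAAG was found in 39.1% of the members against 9.1% of all promoters, the YY1-type motif ATGGCGG in 15.6% against 4.2%, and the Sp1-type motif GGGCGG in 59.4% against 35.9%. The TATA box letters TATAAA occurred in 12.5% against 14.2%. A match describes letters only and shows no binding.

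Depth was 17.41 to 23.46 M counts per library after the sum of the 9 nuclear columns was taken out of the column of Total_WT replicate 1, as the processing account describes. The replicates of a group differed by 1.29 to 1.88 times the sampling noise (median chi-square over genes), except Total_Hom replicate 2, which stood at 4.82 from each of the other Total_Hom libraries and in which Rn45s, a ribosomal RNA precursor, took 7.12% of the counts. Nup93 itself, whose allele is a base change that gene counts do not read, was higher in nuclear Het and Hom than in nuclear WT (log2 change 0.51 and 0.35) and did not pass the test between genotypes in total RNA (edgeR). All 10 podocyte markers were detected, at 0.0256% to 0.0532% of counts, beside 3.15% to 5.27% for 10 proximal tubule markers. Xist was high (334 to 545 CPM, the share of a library's counts in parts per mega count, scaled here with TMM factors) in the groups Nuclear_Het, Nuclear_Hom and Total_WT and low (0.341 to 1.67) in Nuclear_WT, Total_Het and Total_Hom, and Y-linked genes showed the reverse. Of the genotype comparisons, Hom against Het within each fraction is the only one that does not cross Xist status; in the others genotype and the sex-linked difference cannot be told apart. The labels give no sex, so the split contradicts none of them, but Total_Het resembled Nuclear_WT and Total_WT resembled Nuclear_Het in these genes. Whether group labels were exchanged in 1 fraction was not tested, and each direction below that involves WT or Het holds for the libraries as labelled.

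The ribosomal protein genes together took between 2.11% and 3.96% of a library's counts. In nuclear RNA their share was 2.11%, 2.14% and 2.13% in the 3 WT libraries, 3.40%, 3.34% and 3.29% in Het, and 2.98%, 3.11% and 3.11% in Hom. In total RNA it was 2.94%, 2.92% and 2.98% in WT, 2.18%, 2.15% and 2.16% in Het, and 3.86%, 3.65% and 3.96% in Hom. Every library of Nuclear_WT and Total_Het lay below every library of the other 4 groups, and Total_Hom lay above all others. Leaving Rn45s out of the totals brought the Total_Hom libraries closer together, at 3.87%, 3.93% and 3.97%. In bulk RNA, fewer cells of a type and less RNA per cell cannot be told apart.

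**Figure D1:**
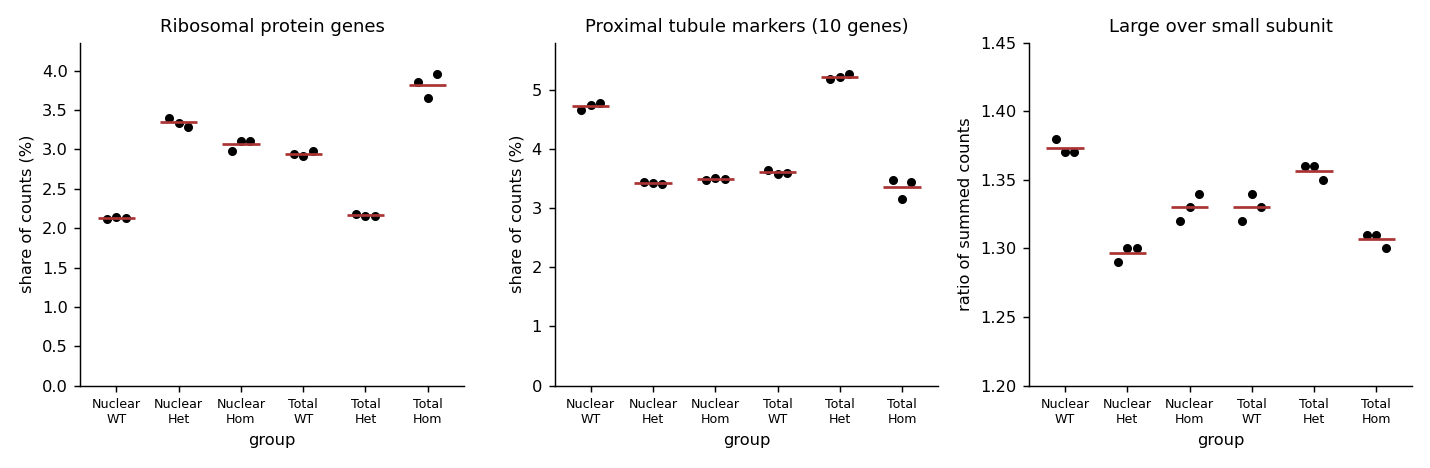
Share of each library's counts in the ribosomal protein genes, the share of 10 proximal tubule marker genes, and the ratio of large to small subunit counts (axis not from 0), with 1 point per library, 3 per group, and the group mean as a line. The ribosomal protein share is lowest in Nuclear_WT and Total_Het and highest in Total_Hom; the proximal tubule share is highest in Nuclear_WT and Total_Het.

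The summed share of the 10 proximal tubule markers ran the other way. It was 4.66% to 4.77% in Nuclear_WT and 5.18% to 5.27% in Total_Het, the groups low in ribosomal protein counts, and 3.15% to 3.64% in the remaining groups (3.40% to 3.44% in Nuclear_Het, 3.48% to 3.51% in Nuclear_Hom, 3.58% to 3.64% in Total_WT and 3.15% to 3.47% in Total_Hom). Kap made up a large part of this difference, with a mean of 14500 CPM in Nuclear_WT, 23000 in Total_Het and 1610 to 5400 in the other groups. Slc34a1, Slc22a6, Slc27a2 and Cubn also had their highest means in Nuclear_WT and Total_Het. The other markers of the list did not: Lrp2 was highest in Total_WT, Miox in Nuclear_Hom, and Aqp1 and Gpx3 in Total_Hom. Slc5a2 was higher in Nuclear_Hom than in Total_Het. As sums over each list, podocyte, stromal and distal nephron markers moved with the ribosomal protein share. Podocyte markers were at 0.0256% to 0.0332% of counts in Nuclear_WT and Total_Het and at 0.0391% to 0.0532% in the other groups. The stromal list was at 0.0206% to 0.0225% against 0.0295% to 0.0417%, and the distal list at 0.756% to 0.846% against 0.967% to 1.32%. Immune markers were at 0.155% to 0.160% in Nuclear_Het and at 0.05% to 0.0984% elsewhere. Endothelial markers did not follow this split of the groups. They were at 0.0569% to 0.0577% in Nuclear_WT, 0.0637% to 0.0641% in Nuclear_Het and 0.0656% to 0.0664% in Nuclear_Hom. In total RNA they were at 0.0968% to 0.0985% in WT, 0.0663% to 0.068% in Het and 0.0974% to 0.108% in Hom. No marker of the podocyte, proximal tubule, distal, endothelial, immune or stromal lists was at 0 in every library. The part of tissue make-up in the differences between groups was not tested.

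The 2 subunits did not move in exactly the same proportion. Summed large subunit counts were 1.38, 1.37 and 1.37 times the summed small subunit counts in the Nuclear_WT libraries and 1.36, 1.36 and 1.35 times in Total_Het. The ratio was lower in the groups with a larger ribosomal protein share, at 1.29, 1.30 and 1.30 in Nuclear_Het, 1.32, 1.33 and 1.34 in Nuclear_Hom, and 1.31, 1.31 and 1.30 in Total_Hom. Total_WT stood at 1.32, 1.34 and 1.33. The lowest library of Nuclear_WT and Total_Het was above the highest library of every other group.

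Levels per length differed widely between members. Among the 73 members with a mean of at least 100 CPM, the median was 492.5 CPM per kilobase of the deposited gene length. The highest levels were those of the stalk protein Rplp1 with 1672 CPM per kilobase, the small subunit protein Rps14 with 1425 and Rpl41, the shortest ribosomal protein, with 1362. Rps15a was lowest with 36.24 CPM per kilobase, and its deposited length of 5134 bases is the longest of any member. The order of the 73 levels was nearly the same in every group, with a Spearman correlation between 0.957 and 0.996 for each pair of groups, all of which share the genes and their lengths.

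A few core members were nearly empty. Rpl26, a core protein of the large subunit, was listed at 0 in all 18 libraries. For counting error alone, a count of 0 was given a floor of 3 counts, or 0.128 to 0.172 CPM depending on the library. This floor does not cover reads lost in mapping or counting. Rpl30 had 5 to 13 counts per library, Rps27 10 to 42, Rpl34 20 to 37, and Rpl29 274 to 527. Ribosomal protein genes have many processed copies elsewhere in the genome, and how reads matching several places were counted is not given in the sources used here. In the GENCODE M21 transcripts, 44.0% of the 50-base words of Rpl26 occur in transcripts of other genes, 72.8% of those of Rpl30, 46.2% of Rps27, 11% of Rpl34 and 35.5% of Rpl29. Over 83 members with a coding transcript there the share ranged from 0.0% to 95.1% (Rpl35), with a median of 35.9%. Across 80 tested members the share of such words had a Spearman correlation of 0.0371 with the level, a description over genes that share the libraries. The levels of members with shared sequence are uncertain for this reason, and its part in the near-empty rows was not tested.

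The order of the groups was the same for most members. Of the 82 tested, 74 had their highest group mean in Total_Hom, 57 had their lowest in Nuclear_WT and 18 in Total_Het. In 74 members the means of both Nuclear_WT and Total_Het lay below the means of all 4 other groups. The 8 that departed from this were Rpl29, Rpl30, Rpl32l, Rpl34, Rpl3l, Rpl7l1, Rps27 and Rps27l. The highest group mean was between 1.12 times (Rpl15) and 2.24 times (Rps14) the lowest among the 73 members of at least 100 CPM, with a median of 1.64 times.

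Of the large subunit, Rpl13a, which also takes part in translational control during inflammation, read 586.2, 592.2 and 584.6 CPM in Nuclear_WT, 992.0, 974.5 and 953.7 in Nuclear_Het, and 810.6, 860.3 and 840.1 in Nuclear_Hom. In total RNA Rpl13a read 821.9, 820.7 and 834.1 CPM in WT, 670.4, 660.7 and 639.6 in Het, and 1173, 1219 and 1198 in Hom. Within each fraction the 3 genotypes of Rpl13a did not overlap, but the lowest genotype was WT in nuclear RNA and Het in total RNA.

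Rpl36a, an X-linked large subunit gene, had 108.0, 109.6 and 107.1 CPM in Nuclear_WT, 190.6, 192.3 and 184.7 in Nuclear_Het, and 165.6, 183.4 and 175.8 in Nuclear_Hom. Its total RNA libraries gave 164.0, 160.5 and 163.3 CPM in WT, 112.6, 108.6 and 116.9 in Het, and 224.2, 223.5 and 229.2 in Hom. Nuclear_WT and Total_Het were again the low groups, and Total_Hom was above every other library.

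Rpl5 and Rpl11, which bind 5S ribosomal RNA and can restrain the p53 regulator Mdm2, kept the same order. Rpl5 had 338.0, 340.2 and 346.8 CPM in Nuclear_WT and 456.8, 466.1 and 478.5 in Nuclear_Hom, and in total RNA 375.1, 362.6 and 366.4 in Het and 670.1, 665.1 and 640.9 in Hom. Rpl11 had 319.9, 321.0 and 320.3 CPM in Nuclear_WT, 427.4, 454.6 and 475.7 in Nuclear_Hom, 344.7, 343.3 and 347.7 in Total_Het, and 574.7, 597.7 and 605.2 in Total_Hom. None of these groups overlapped for either gene.

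Among small subunit genes of at least 100 CPM, Rps14 had the largest ratio between group means. It read 590.0, 616.1 and 585.5 CPM in Nuclear_WT, 953.9, 886.5 and 869.3 in Nuclear_Het, and 784.5, 821.9 and 815.8 in Nuclear_Hom. In total RNA it read 829.6, 786.3 and 804.9 CPM in WT, 648.9, 646.2 and 654.5 in Het, and 1283, 1338 and 1400 in Hom. Total_WT and Nuclear_Hom overlapped for Rps14, and Total_Hom lay above all other libraries.

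Rps3, a protein at the mRNA entry channel, had 633.2, 646.8 and 640.6 CPM in Nuclear_WT, 911.0, 911.9 and 889.5 in Nuclear_Het, and 871.3, 905.5 and 885.0 in Nuclear_Hom, so that its nuclear Het and Hom libraries overlapped. Its total RNA libraries had 838.4, 836.0 and 862.8 CPM in WT, 643.3, 641.5 and 649.7 in Het, and 1101, 1113 and 1132 in Hom. Rps6, the small subunit protein phosphorylated by S6 kinase downstream of mTOR, had 181.0, 175.9 and 184.5 CPM in Nuclear_WT against 277.7, 274.6 and 253.0 in Nuclear_Het, and 188.3, 185.3 and 192.1 in Total_Het against 316.1, 308.1 and 321.8 in Total_Hom. The pairs of groups given for Rps6 did not overlap.

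The stalk proteins recruit translation factors to the ribosome. Rplp0, the stalk base, had 330.6, 329.4 and 335.8 CPM in Nuclear_WT, 427.2, 434.0 and 414.0 in Nuclear_Het, and 382.1, 393.3 and 394.5 in Nuclear_Hom. In total RNA Rplp0 had 373.0, 352.7 and 385.0 CPM in WT, 326.5, 335.1 and 325.9 in Het, and 494.3, 469.8 and 489.3 in Hom. Its genotypes did not overlap within a fraction.

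Some members varied much less. Rpl15 read 176.3, 177.4 and 179.0 CPM in Nuclear_WT, 189.5, 202.4 and 194.5 in Nuclear_Hom, 179.6, 175.8 and 176.3 in Total_Het, and 188.3, 202.5 and 204.5 in Total_Hom. Rps2, a small subunit protein near the mRNA entry, read 616.1, 627.4 and 614.8 CPM in Nuclear_WT, 720.7, 764.7 and 747.3 in Nuclear_Hom, 612.3, 596.0 and 588.7 in Total_Het, and 680.0, 694.9 and 726.1 in Total_Hom. For both genes Nuclear_Hom overlapped with Total_Hom, and the highest group mean was 1.12 times (Rpl15) and 1.24 times (Rps2) the lowest. In Rps2, 56.4% of 50-base words are shared with other genes, against 25.6% in Rpl15 and 16.3% in Rps14.

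**Figure D2:**
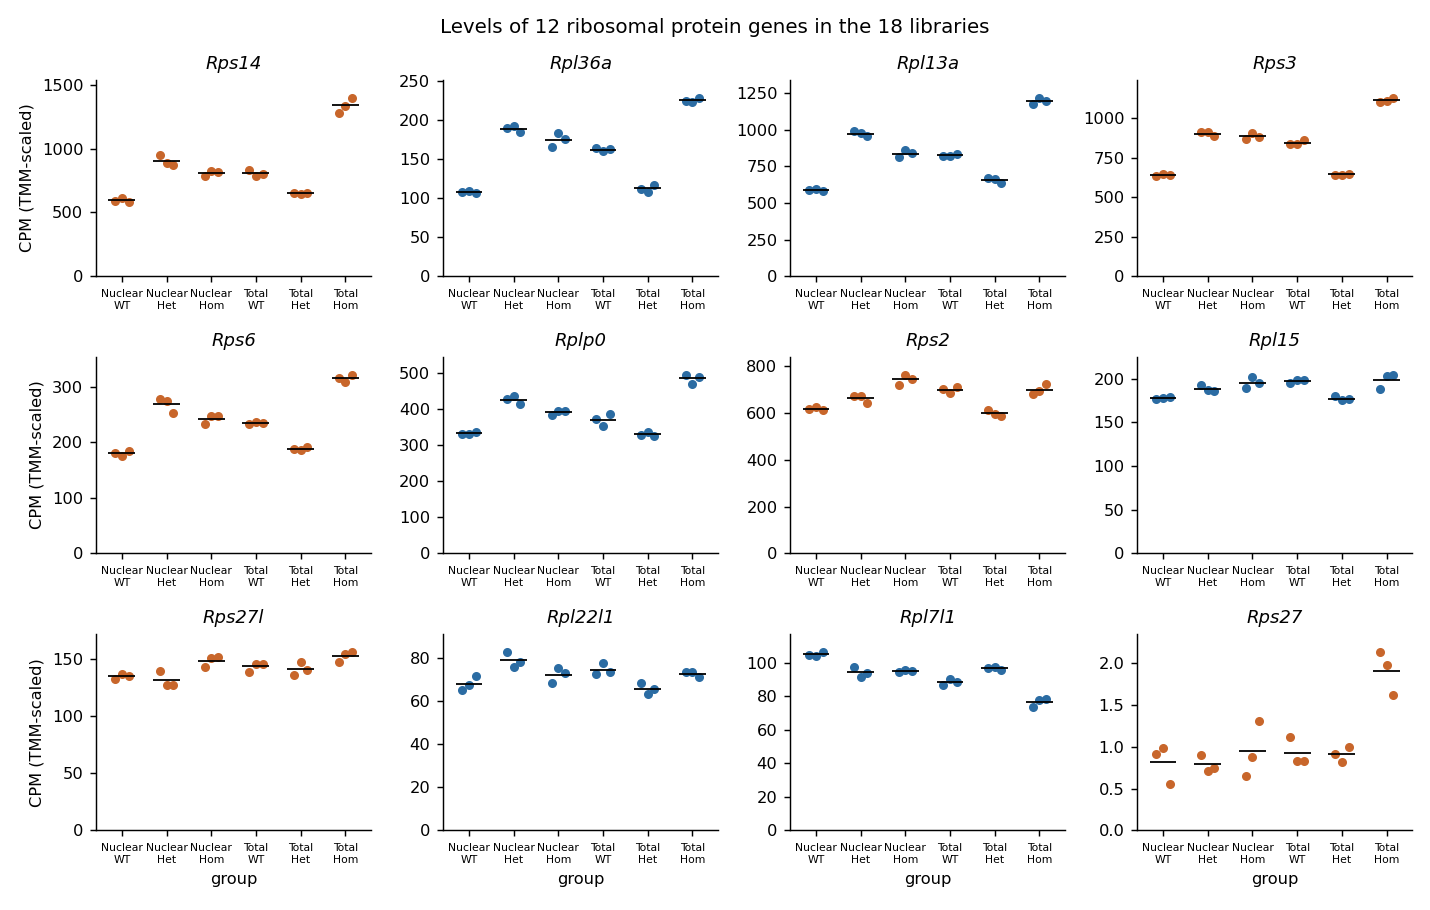
CPM (TMM-scaled) of 12 ribosomal protein genes in each of the 18 libraries, 3 points per group with the group mean as a line; large subunit genes in blue, small in orange, and each panel with its own axis from 0. Rpl36a, Rpl13a, Rps14 and Rps3 are low in Nuclear_WT and Total_Het and highest in Total_Hom, whereas Rpl15, Rps2, Rps27l and Rpl22l1 vary little and Rpl7l1 is lowest in Total_Hom; Rps27 has at most 2.13 CPM.

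The first comparison set homozygous against wild type nuclear RNA. Of 82 members, 76 rose and 1 fell, where 26.5% of all 15112 genes tested rose and 27.8% fell (edgeR, Benjamini-Hochberg adjusted p under 0.05). The median log2 change was 0.41 in the members and 0.02 in all genes tested; it was 0.39 in the large and 0.44 in the small subunit. The largest rises were those of Rpl36a (0.69 ± 0.03, SE), Rpl12 (0.59 ± 0.03), Rps27a (0.57 ± 0.03), Rps20 (0.55 ± 0.03) and Rpl14 (0.54 ± 0.03). The fixed panel rose as well, by 0.51 ± 0.02 for Rpl13a, 0.50 ± 0.03 for Rpl11, 0.47 ± 0.02 for Rps3, 0.45 ± 0.02 for Rpl5, 0.43 ± 0.03 for Rps6, 0.36 ± 0.02 for Rpsa (a laminin-binding small subunit protein), 0.24 ± 0.02 for Rpl4 and 0.23 ± 0.02 for Rplp0. At the low end Rpl15 rose by 0.14 ± 0.03 and the paralog Rpl22l1 by 0.09 ± 0.04, while Rpl7l1 was the only member that fell (-0.14 ± 0.04, edgeR adjusted p = 0.000555). Rpl3l (-0.60 ± 0.32), Rpl30 (-0.43 ± 0.43), Rps27, Rpl34 and Rpl32l, all with few counts, did not pass the test.

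Heterozygous against wild type nuclear RNA gave a similar count, 76 of 82 higher and 1 lower, where 32.8% of all genes rose and 31.7% fell. It shares its WT libraries with the comparison above. The median was 0.47 in the members (0.45 large, 0.54 small subunit) and 0.02 in all genes. The largest rises were in Rpl36a (0.81 ± 0.03), Rps24 (0.79 ± 0.03), Rpl13a (0.73 ± 0.02), Rps12 (0.72 ± 0.03) and Rps9 (0.72 ± 0.02). Rps24 and Rps14 are small subunit genes whose loss is known from disorders of red cell production, and Rps14 rose by 0.60 ± 0.03. Rpl4, Rplp0 and Rpsa were again lower in the order, at 0.28 ± 0.02, 0.36 ± 0.02 and 0.42 ± 0.02. Rpl7l1 fell (-0.15 ± 0.04, edgeR adjusted p = 0.000124), which turned to 0.02 with library totals alone in place of TMM factors, the between-library scaling of edgeR. Rps27l had a log2 change of -0.03 ± 0.03 that did not pass the test and was 0.15 with library totals alone.

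In nuclear Hom against Het, where both groups are high in Xist, 44 members fell and 2 rose, beside 21.8% and 21.4% of all genes tested. The median was -0.07 in the members and -0.001 in all genes. By subunit, 24 of 33 small subunit members fell and 20 of 49 large subunit members, with medians of -0.10 and -0.06. Among the members that fell most were Rps24 (-0.29 ± 0.03) and Rps9 (-0.24 ± 0.02), and of the fixed panel Rpl13a fell by 0.22 ± 0.02, Rps6 by 0.15 ± 0.03, Rplp0 by 0.12 ± 0.02, Rpl5 by 0.08 ± 0.02 and Rpsa by 0.06 ± 0.02. Rpl4 (-0.04 ± 0.02), Rpl11 (-0.02 ± 0.03) and Rps3 (-0.03 ± 0.02) did not pass. The 2 that rose were Rps27l (0.18 ± 0.03, edgeR adjusted p = 5.5e-06) and Rps2 (0.16 ± 0.02, edgeR adjusted p = 3.42e-09).

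**Figure D3:**
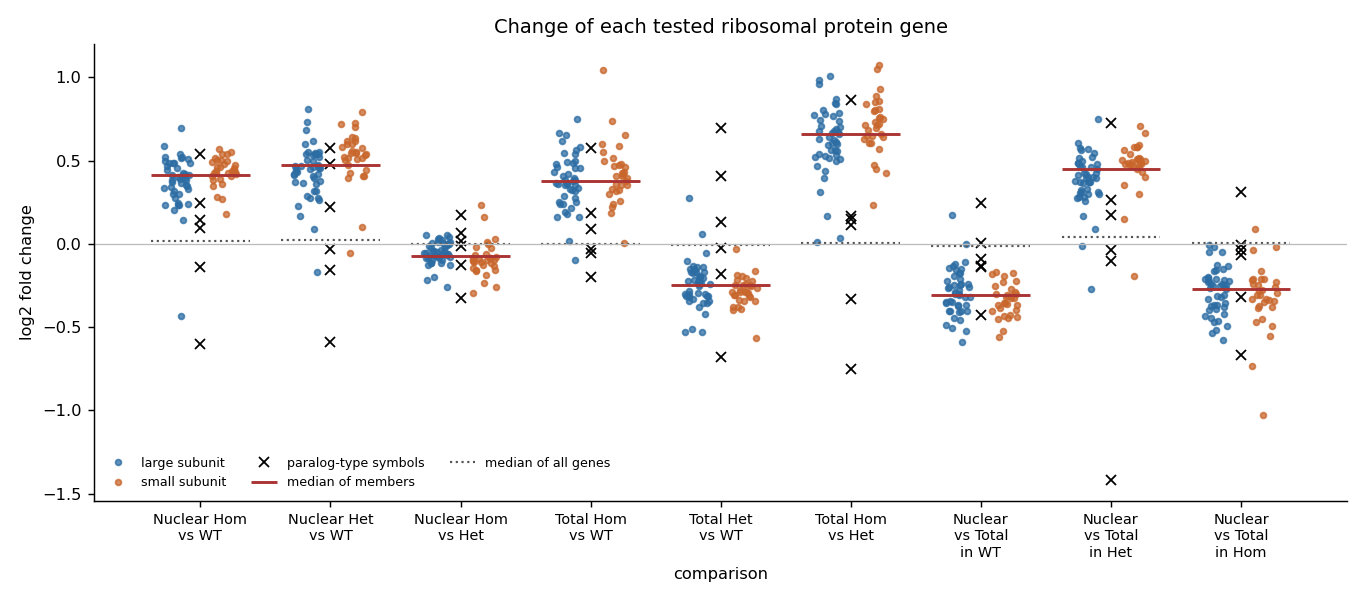
log2 change of each tested ribosomal protein gene in each comparison, as points by subunit and crosses for paralogs, with the median of the members (solid line) and of all genes tested (dotted). Nearly all members lie above 0 in nuclear Hom and Het against WT and in total Hom against WT and Het, and below 0 in total Het against WT.

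In total RNA, homozygous against wild type, 75 of 82 members rose and 1 fell, where 30.6% of 15051 genes rose and 31.0% fell. The median was 0.38 in the members and -0.00125 in all genes, with 0.37 in the large and 0.41 in the small subunit. Rps27 had the largest log2 change, 1.05 ± 0.26 (edgeR adjusted p = 0.000239), on 10 to 42 counts per library. Next came Rpl36 (0.75 ± 0.06), Rps14 (0.74 ± 0.02), Rpl17 (0.67 ± 0.02) and Rpl12 (0.65 ± 0.02). The fixed panel rose between 0.26 ± 0.02 (Rpsa) and 0.55 ± 0.02 (Rpl5). Rps2 (0.01 ± 0.02) and Rpl15 (0.02 ± 0.03) did not pass although both had well over 100 CPM, nor did Rpl22l1 (-0.03 ± 0.04). Rpl7l1 fell by 0.20 ± 0.03. Without Total_Hom replicate 2, and likewise without Total_WT replicate 1, 73 members rose and 1 fell.

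The libraries labelled heterozygous total RNA moved the opposite way. Against those labelled wild type, 73 of 82 members fell and 2 rose, where 30.3% of all genes fell and 30.9% rose. The median was -0.25 in the members (-0.23 large, -0.29 small subunit) and -0.01 in all genes. The largest falls were those of Rps4l (-0.68 ± 0.09), Rps27a (-0.56 ± 0.02), which is made as a fusion with ubiquitin, Rpl31 (-0.53 ± 0.02), Rpl36a (-0.53 ± 0.03) and Rpl22 (-0.51 ± 0.02). The fixed panel fell by between 0.15 ± 0.02 (Rpl4) and 0.39 ± 0.02 (Rps3). The members that rose were the paralogs Rpl3l (0.69 ± 0.24, edgeR adjusted p = 0.0089), at 1.02 to 2.62 CPM in these 6 libraries, and Rpl7l1 (0.13 ± 0.03), whose value turned to -0.05 with library totals alone.

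Total Hom against Het compares groups that are both low in Xist and had the largest member median of the comparisons between 2 groups. Of 82 members, 77 rose and 2 fell, beside 32.9% and 34.1% of all genes tested. The median was 0.66 in the members, or 0.61 in the large and 0.71 in the small subunit, and 0.01 in all genes. Rps27 (1.07 ± 0.27), Rps14 (1.05 ± 0.02), Rpl36a (1.01 ± 0.03), Rpl36 (0.98 ± 0.06) and Rpl12 (0.96 ± 0.02) rose most. The fixed panel rose by 0.87 ± 0.02 (Rpl13a), 0.84 ± 0.02 (Rpl5), 0.80 ± 0.02 (Rps3), 0.78 ± 0.02 (Rpl11), 0.75 ± 0.02 (Rps6), 0.56 ± 0.02 (Rplp0), 0.51 ± 0.02 (Rpl4) and 0.45 ± 0.02 (Rpsa). Rpl3l (-0.75 ± 0.24) and Rpl7l1 (-0.33 ± 0.03) fell, and Rpl30, Rpl34 and Rpl32l did not pass. Of all genes tested, 12.2% lay at least as far from 0 as the members' median. Leaving out Total_Hom replicate 2 gave the same counts.

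The 2 comparisons of Hom with Het ran in opposite directions, with 44 members lower in nuclear RNA and 77 higher in total RNA. Scaling by library totals alone moved the median of all genes, and the members moved with it. In nuclear Hom against WT the median of all genes went from 0.02 to 0.14 and that of the members from 0.41 to 0.54. In total Hom against Het they went from 0.01 to 0.16 and from 0.66 to 0.81, and in total Het against WT from -0.01 to -0.19 and from -0.25 to -0.43.

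Nuclear and total RNA were then compared within each genotype. In WT, 75 of 82 members were below their total RNA level in the nuclear libraries and 1 was above it, beside 30.8% and 30.9% of 15410 genes, with a member median of -0.31. In Hom, 69 were lower and 2 higher, beside 29.8% and 30.5%, with a median of -0.27. In Het the direction was the opposite, with 74 higher and 2 lower, beside 33.4% and 30.2%, and a median of 0.45. Rpl36a, for example, differed by -0.59 ± 0.03 in WT, -0.37 ± 0.03 in Hom and 0.75 ± 0.03 in Het, and Rps14 by -0.43 ± 0.04, -0.73 ± 0.04 and 0.48 ± 0.04.

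The nuclear and total groups of WT and of Het differ in Xist level as well as in fraction, and so do those of Hom. Members called against the majority were Rpl7l1, higher in nuclear RNA in WT (0.25 ± 0.03) and Hom (0.31 ± 0.03), Rps2, higher in Hom (0.09 ± 0.02), and Rpl3l (-1.42 ± 0.29) and Rps27l (-0.10 ± 0.03), lower in Het, where Rps27l turned to 0.10 with library totals alone. The lowest members in Hom were Rps27 (-1.03 ± 0.26), Rps14, Rpl3l (-0.67 ± 0.30), Rpl17 (-0.58 ± 0.02) and Rps9 (-0.56 ± 0.02). In WT they were Rpl36a, Rps27a (-0.56 ± 0.02), Rpl22 (-0.52 ± 0.03), Rps24 (-0.52 ± 0.02) and Rpl31 (-0.50 ± 0.03).

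Whether the nuclear-to-total ratio differed between genotypes was tested with the interaction term. Against WT, the ratio in Het was higher for 74 of 82 members and lower for 2, where 37.8% of all genes were higher and 32.9% lower. The member median was 0.76 and that of all genes 0.07. Rpl36a (1.33 ± 0.04), Rps27a (1.27 ± 0.04), Rps24 (1.19 ± 0.03), Rps4l (1.15 ± 0.12) and Rpl22 (1.13 ± 0.04) had the largest differences, and the fixed panel ranged from 0.43 ± 0.03 (Rpl4) to 1.06 ± 0.03 (Rpl13a). The ratio of Rpl3l (-1.28 ± 0.41) was lower, as was that of Rpl7l1 (-0.28 ± 0.05), which turned to 0.07 with library totals alone.

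The ratio in Hom against WT was split, with 31 members higher and 18 lower, beside 28.4% and 27.7% of all genes, and medians of 0.02 in the members and 0.02 in all genes. As shares of the 82 members these are 37.8% and 22.0%, not far from the background. Rpl22 (0.37 ± 0.04), Rps4l (0.36 ± 0.11), Rps27a (0.33 ± 0.03) and Rpl23a (0.31 ± 0.04) were highest. Rps14 (-0.30 ± 0.05) was the lowest among those that passed, and of the fixed panel Rplp0 (-0.16 ± 0.03) was lower and Rpsa (0.10 ± 0.03) and Rps3 (0.07 ± 0.03) were higher. Rpl4 (-0.11 ± 0.03) and Rpl5 (-0.09 ± 0.03) were lower too, but turned to 0.03 and 0.06 with library totals alone. Rpl13a (-0.03 ± 0.03), Rpl11 (0.02 ± 0.03) and Rps6 (0.01 ± 0.04) did not pass, and Rpl13a passed at 0.12 with library totals alone. The split depended on the scaling, since with library totals alone 51 members were higher and 3 lower. With the column of Total_WT replicate 1 as deposited, 19 were higher.

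The variant paralogs, which can replace a core protein or work outside the ribosome, did not follow the family as one group. Rpl7l1 had 103.8 to 106.6 CPM in Nuclear_WT and 73.94 to 78.19 in Total_Hom, the reverse of the core pattern, and it passed the test in 8 of the 11 comparisons. Rps27l, a p53-responsive paralog of Rps27, stayed between 126.8 and 156.1 CPM in all libraries, and its highest group mean was 1.16 times its lowest. Rpl22l1, a paralog of Rpl22 with which it has opposing roles in development, ranged from 63.27 to 82.73 CPM, while Rpl22 itself ranged from 194.1 to 316.8.

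Rps4l followed the family at a low level, with 14.17 to 15.01 CPM in Nuclear_WT, 11.79 to 12.77 in Total_Het and 18.71 to 25.08 in Total_Hom. Rps4x, its X-linked counterpart, had 420.7 to 434.8 CPM in Nuclear_WT and 703.7 to 717.8 in Total_Hom. Rpl3l, known from striated muscle, had 0.3706 to 2.62 CPM, and Rpl32l 0.8331 to 2.065. Rpl10l, known from testis, and Rpl39l were not tested for lack of counts.

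Comparisons that share no library were set side by side over the 72 core members of at least 100 CPM. The changes in nuclear Hom against WT and total Hom against WT had a Pearson correlation of 0.297 (Spearman 0.205), beside a Spearman correlation of -0.0129 over all genes. Nuclear Hom against WT and total Het against WT were opposed, at -0.741 (Spearman -0.746), and so were all genes, at -0.562. For nuclear Hom against WT and total Hom against Het the correlation was 0.716 (Spearman 0.682), and 0.509 over all genes. Nuclear and total Hom against Het, neither of which crosses Xist status, had a correlation of -0.414 (Spearman -0.367), and -0.25 over all genes. These are descriptions across genes, which share libraries and depth within a comparison and are not independent replicates.

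**Figure D4:**
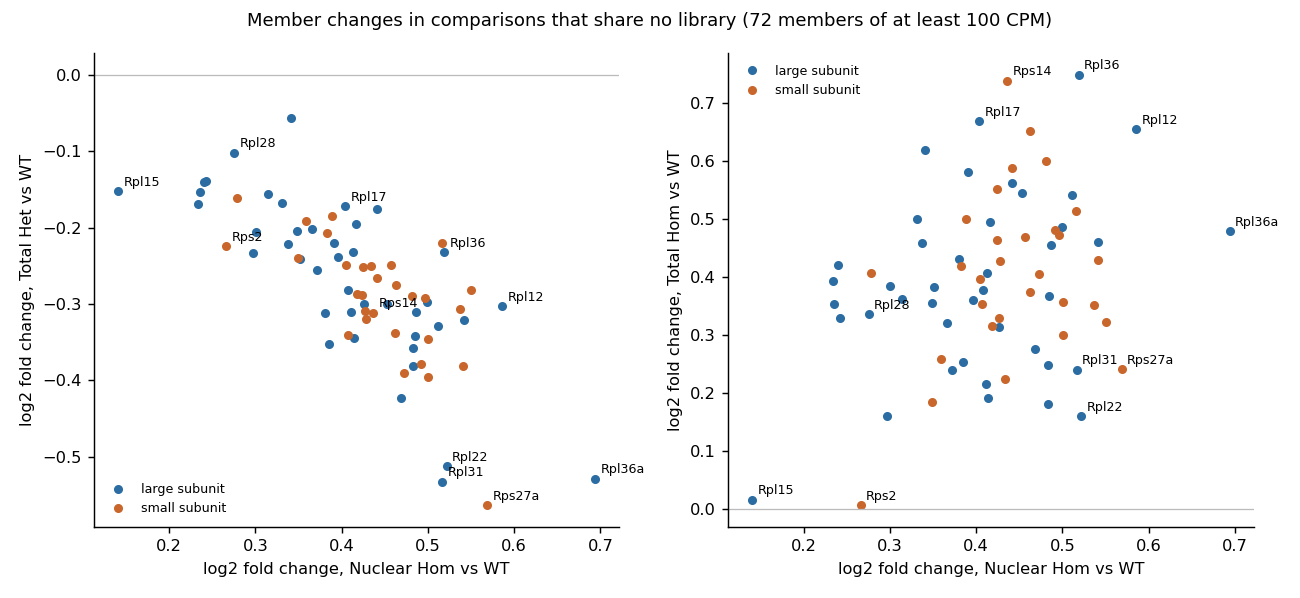
log2 change of the core ribosomal protein genes of at least 100 CPM in pairs of comparisons that share no library, 1 point per gene. The points of nuclear Hom against WT and total Het against WT fall along a downward line (Pearson r = -0.741), and those of nuclear and total Hom against WT scatter more (r = 0.297).

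The members are short genes: the tested ones had a median deposited length of 729.5 bases (327 to 5134), against 2870 for all tested genes. Length was weakly related to the change among them, with a Spearman correlation between -0.11 and 0.0643 in the 11 comparisons. Members were also set beside other genes of the same length class. In nuclear Hom against WT, members under 500 bases had a median log2 change of 0.427 and other genes 0.114; from 500 to under 1000 bases the medians were 0.406 and 0.0526, and from 1000 to under 2000 bases 0.398 and 0.024. In total Hom against Het the same classes gave 0.638 and 0.194, 0.682 and 0.015, and 0.584 and 0.0123. In total Het against WT, where most members fell, the members' medians were below those of other genes in the shorter classes, at -0.256 and -0.134 under 500 bases and -0.249 and -0.0433 from 500 to under 1000. These are medians of unequal numbers of genes and were not tested against each other.

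**Figure D5:**
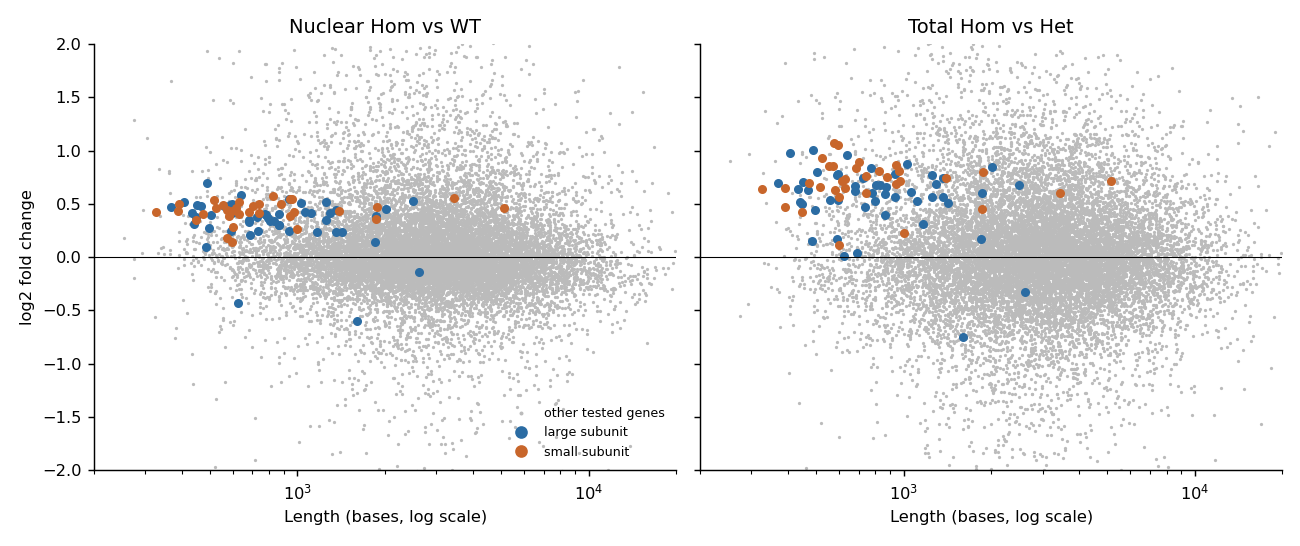
log2 change against deposited gene length on a log axis for the tested ribosomal protein genes and all other tested genes; genes beyond the axis limits are not drawn. Blue and orange points are large and small subunit members, grey points other genes; most members lie at the short end and above 0 in both comparisons drawn.

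The pyrimidine run was also weakly related to the size of the change. Across 55 members of at least 100 CPM with a promoter entry, the paralog Rps27l included, run length was correlated with log2 change. The Spearman correlation lay between -0.258 and 0.244 over the 11 comparisons. Run lengths here were cut at the ends of the searched stretch. In nuclear Hom against WT the 41 members with a run of at least 8 bases had a median of 0.428 and the 14 others 0.386. The window of Rpl15, which has the longest printed run, belongs to the member that varied least.

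Ribosomal proteins under other symbols included Fau, the source of the small subunit protein eS30, and Rack1, the scaffold on the small subunit head. Fau and Rack1 rose in nuclear Hom against WT by 0.46 and 0.32 and in total Hom against WT by 0.46 and 0.54, and fell in total Het against WT by 0.25 and 0.13. Rpl36al, a retrocopy of Rpl36a, had 0.04 in nuclear Hom against WT, which did not pass, and rose by 0.25 in total Het against WT.

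Translation factors and other genes with TOP mRNAs were counted as well. Of 17 tested, 12 rose and 0 fell in nuclear Hom against WT (median 0.13), 14 rose and 2 fell in total Hom against WT (0.25) and in total Hom against Het (0.43), and 6 rose and 7 fell in total Het against WT (0.01). Of all genes, 26.5% rose and 27.8% fell in nuclear Hom against WT, 30.6% and 31.0% in total Hom against WT, and 32.9% and 34.1% in total Hom against Het. The 30.9% and 30.3% of all genes in total Het against WT are near the shares of this list. The elongation factors Eef1a1 and Eef1b2 rose by 0.27 and 0.40 in nuclear Hom against WT, and the initiation factor Eif3f by 0.40. Eef2, which moves the ribosome along the mRNA, rose by 0.63 in total Hom against WT.

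Ribosome biogenesis factors had medians between -0.0885 and 0.0997 in the 11 comparisons. Of 49 tested, 5 rose and 8 fell in nuclear Hom against WT (median 0.00), and 12 rose and 12 fell in total Hom against Het (0.02). Of all genes, 26.5% rose and 27.8% fell in the first of these, and 32.9% and 34.1% in the second. Nhp2, of the H/ACA particles that modify ribosomal RNA, fell by 0.84 and 1.07 in these comparisons, and the rRNA processing factor Utp20 rose by 0.77 in total Het against WT. In total Hom against WT 19 rose and 8 fell, beside 30.6% and 31.0% of all genes. In total Het against WT 19 rose and 6 fell, beside 30.9% and 30.3%. In nuclear against total WT 21 were higher and 4 lower, beside 30.9% and 30.8%. The ratio of Hom against WT was higher for 5 and lower for 21, beside 28.4% and 27.7%. In the remaining comparisons 4 to 17 were higher and 6 to 17 lower. There, 21.4% to 37.8% of all genes were higher and 21.8% to 32.9% lower.

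Mitochondrial ribosomal proteins, which are nuclear-encoded and build the separate ribosome of mitochondria, had medians of the opposite sign to the cytosolic ones in these comparisons. Of 78 tested, 6 rose and 30 fell in nuclear Hom against WT (median -0.08), 3 rose and 65 fell in nuclear Het against WT (-0.23), and 7 rose and 53 fell in total Hom against Het (-0.24). In nuclear Hom against Het 59 rose and 0 fell (0.17), and in total Het against WT 34 rose and 8 fell (0.07). The shares of all genes that rose and fell were 26.5% and 27.8% in nuclear Hom against WT, 32.8% and 31.7% in nuclear Het against WT, 21.4% and 21.8% in nuclear Hom against Het, 30.9% and 30.3% in total Het against WT, and 32.9% and 34.1% in total Hom against Het. Mrpl4 fell by 0.32 and Mrps7 by 0.28 in nuclear Hom against WT, and Mrpl10 fell by 0.61 in total Hom against Het. The part of the proximal tubule share, high in Nuclear_WT and Total_Het, was not tested.

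Other initiation factors were divided, with 6 of 22 higher and 11 lower in nuclear Hom against WT (background 26.5% and 27.8% of tested genes). In total Hom against Het 7 were higher and 13 lower (background 32.9% and 34.1%). The same backgrounds apply to the 16 mTOR, Larp1 and Myc regulators. Of these, 2 were higher and 8 lower in nuclear Hom against WT, and 4 higher and 9 lower in total Hom against Het. Mtor, the kinase that controls TOP mRNAs, fell by 0.719 and 1.002 in these comparisons and rose by 1.43 in total Het against WT and 0.43 in total Hom against WT. Larp1, which binds TOP mRNAs, had -0.18 in nuclear Hom against WT and 0.30 in total Het against WT. Myc, a transcription factor for ribosomal protein genes, rose by 0.69 in nuclear Hom against WT and by 0.79 in total Hom against Het.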

How the data were processed

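Nuclear and total mouse RNA was sequenced in 18 libraries with a stranded mRNA kit, per the labels' protocols. The authors deposited raw counts by gene symbol in 1 table, along with each gene's length. CASAVA, STAR 2.5.2b, featureCounts and DESeq2 and the build mm9 are named, per the submitters' processing notes; settings, annotation and strand of the counting are not given in the sources used here. Total_WT replicate 1 was deposited with 200140709 counts, 10.23 times the average of the others. The 9 nuclear columns add up to 181106189, and 0 genes of Total_WT replicate 1 fell short of them; they were subtracted gene by gene, leaving 19034520.

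edgeR 4.0.16 (R 4.3.3) was run on all genes after filterByExpr, with TMM scaling and robust quasi-likelihood tests, and genes passed at a Benjamini-Hochberg adjusted p under 0.05. Genotypes were compared within a fit of the 9 libraries of 1 fraction; fractions and the interaction were compared in a fit of all 18. CPM use TMM sizes of all 18 libraries, and errors of log2 changes are SE. Named in each comparison were the 5 highest and 5 lowest members, up to 3 called against the majority, the panel Rplp0, Rpl13a, Rpl4, Rpl5, Rpl11, Rps3, Rps6 and Rpsa, the paralogs, and up to 4 genes per related list; some genes that met this rule are not reported here. Gene levels given beyond this rule were chosen after their values were seen. The members and lists were chosen with earlier results of these data known. Alternative settings were TMM without the members, library totals alone, RLE size factors, DESeq2 1.42.0, other filters on low counts, removal of Rn45s, the deposited Total_WT column, other sets of libraries in the fit, a replicate block, and leaving out each library. The fits were tested on simulated counts. Sequences came from RefSeq GRCm38.p6 and GENCODE M21 tables and were matched by symbol. Intervals from counts cover counting error only, since reads carry no molecular identifiers.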

Additional observations from a re-analysis of the deposited data

Results flagged for a closer look

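The nuclear-to-total ratio differed between genotypes by the interaction test itself (edgeR, adjusted over all genes) for many ribosomal protein genes. In Het against WT, 74 members had a higher ratio and 2 a lower one, beside 37.8% and 32.9% of all genes. In Hom against WT, 31 had a higher ratio and 18 a lower one, beside 28.4% and 27.7% of all genes, which is not far from the members' 37.8% and 22.0%. Both comparisons share the WT libraries, and the nuclear and total groups within each genotype differ in Xist level.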

How the results depend on the processing

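The counts of members in the main direction stayed within 1.5 times their value under every alternative run, except for the ratio of Hom against WT. There, library totals alone gave 51 higher and 3 lower, and the deposited column of Total_WT replicate 1 gave 19 higher. Library totals alone also reversed the sign of Rpl7l1 in nuclear Het against WT (0.0231), total Het against WT (-0.0493), nuclear against total in Het (0.161) and the ratio of Het (0.0723). It reversed Rps27l in nuclear Het against WT (0.146), nuclear against total in Het (0.0959) and the ratio of Het (0.346), and Rpl13a (0.119), Rpl4 (0.0302) and Rpl5 (0.0557) in the ratio of Hom. Under that scaling, the share of calls over all genes that were higher went from 48.8% to 73.9% in nuclear Hom against WT, 50.9% to 75.9% in nuclear Het against WT, 49.6% to 33.5% in nuclear Hom against Het, 50.5% to 24.5% in total Het against WT, and 49.1% to 68.4% in total Hom against Het. For nuclear against total it went from 50.1% to 25.4% in WT and 52.5% to 77.3% in Het, and for the ratio from 50.7% to 70.4% in Hom and 53.4% to 78.7% in Het. Of 3382 values of named members under an alternative, 3246 kept their direction and their side of the threshold, 44 no longer passed it, 14 newly passed it, 10 reversed as given, and 68 changed sign without passing the test either way.

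Leaving out 1 library gave 30 to 48 lower members in nuclear Hom against Het (44 with all libraries), 24 to 32 higher and 16 to 21 lower in the ratio of Hom, and between 67 and 77 in the main direction in the other comparisons. The deviations of same-numbered libraries from their group means had correlations of -0.0641 to 0.0543. In 26 of 54 tries a library correlated best with its own number among the 3 libraries of the other group. Such small correlations cannot decide whether the numbers pair the samples. With replicate number as a block 8242 genes passed in nuclear Hom against WT in place of 8213, with 76 members higher; 44 members were lower in nuclear Hom against Het, and in the ratio of Hom 31 were higher and 17 lower. Members with few counts (Rpl30, Rps27, Rpl34, Rpl32l, Rpl3l) have SEs of up to 0.60 and limit what can be said of them.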
